A study of Mus musculus with 28 samples.

Results

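The p38i arm of this reprogramming series kept SB203580, an inhibitor of the p38 MAP kinases (p38i), in the medium throughout induction, and its day 3 samples are compared here with the day 3 samples of the control arm. The comparison uses 4 of the 28 RNA-seq libraries, chosen by their titles: 2 of p38i on day 3 and 2 of the control on day 3, which the titles call ctr and which the study calls its DMSO control, DMSO being a solvent. Both groups started from mouse embryonic fibroblasts (MEFs) labelled wild type, from OG2 mice, which carry a GFP reporter driven by Oct4, and both received the same retroviruses for Oct4, Klf4 and Sox2 (OKS) and the same chemically defined medium, iCD1, for 3 days. The groups therefore shared strain, transgenes, medium and time, and differed in the inhibitor. Retroviruses enter dividing cells, so each library may hold uninfected cells as well, and the embryos were of either sex. In such bulk samples, fewer cells of a type and less RNA per cell cannot be told apart. The remaining libraries are MEFs with or without p38i, both arms on days 1, 5 and 7, and an arm given p38i before induction only, and they serve here as reference levels and, through the shared fit, for the spread. Nothing in the labels says that replicates came from separate cultures, so p-values measure only the spread between these samples.

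The p38 kinases (p38α, encoded by Mapk14, is the main form in fibroblasts) are switched on by MKK3 and MKK6 under stress and cytokine signals, and act through kinases such as MK2 and MSK1 and through transcription factors and RNA-binding proteins. Reprogramming of fibroblasts starts with a mesenchymal-to-epithelial transition, in which fibroblast genes are silenced and adhesion genes such as Cdh1 (E-cadherin) are switched on before the pluripotency network. Interferons signal through receptors and JAK kinases to transcription factors that switch on antiviral genes, the immunoproteasome and the machinery of antigen presentation by MHC class I.

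Values are the deposited transcript-per-million-like numbers (TPM, corrected for transcript length), given as whole numbers that summed to between 991548 and 991942 in these 4 libraries. The number of reads behind them is unknown, so no counting interval can be given, and values under about 5 are coarse. Genes at 1 or more numbered 13871 and 13808 in the DMSO libraries and 13360 and 13334 in the p38i libraries, and mitochondrially encoded transcripts made up 5.19% and 5.57% against 6.12% and 6.18%. The 9 fibroblast markers summed to a mean of 6970 in DMSO and 6054 in p38i, led by Vim, while Nanog was listed at 0 in the 4 libraries. Between replicates, log2(value + 1) differed by a root mean square of 0.377 in DMSO and 0.385 in p38i, and each p38i library lay nearer to DMSO on day 3 (0.547 and 0.519) than to DMSO on day 1 (0.704 and 0.684).

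More genes fell than rose under p38i. Of 13230 genes whose mean over the 28 libraries reached 1, 2833 passed an adjusted p of 0.05 in limma (21.4% of those tested), 690 of them higher in p38i (5.22%) and 2143 lower (16.2%). With the spread of these 4 libraries alone, 1044 genes passed. At a log2 difference of at least 1 in size, 43 genes were higher (0.325%) and 600 were lower (4.54%). Without any test, the p38i libraries both lay above both DMSO libraries for 15.6% of genes and both below for 33.3%. The median log2 fold change over all genes was -0.08, and quantile normalization moved it by 0.119 to 0.04 and turned the split of calls from 24.4% higher to an even one, with 1407 higher and 1407 lower. Changes below are given on the authors' scale as log2(value + 1), p38i minus DMSO, which understates the change of low genes, and list medians stand beside that of all genes. Counts of lower and higher genes in a list are to be read beside the shares of all genes, 16.2% and 5.22%. Pairs of values give the replicates of DMSO first and those of p38i second. An exact permutation test of 2 libraries against 2 cannot go below p = 0.333 for a single gene, so every call rests on the spread shared across genes and groups.

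**Figure D1:**
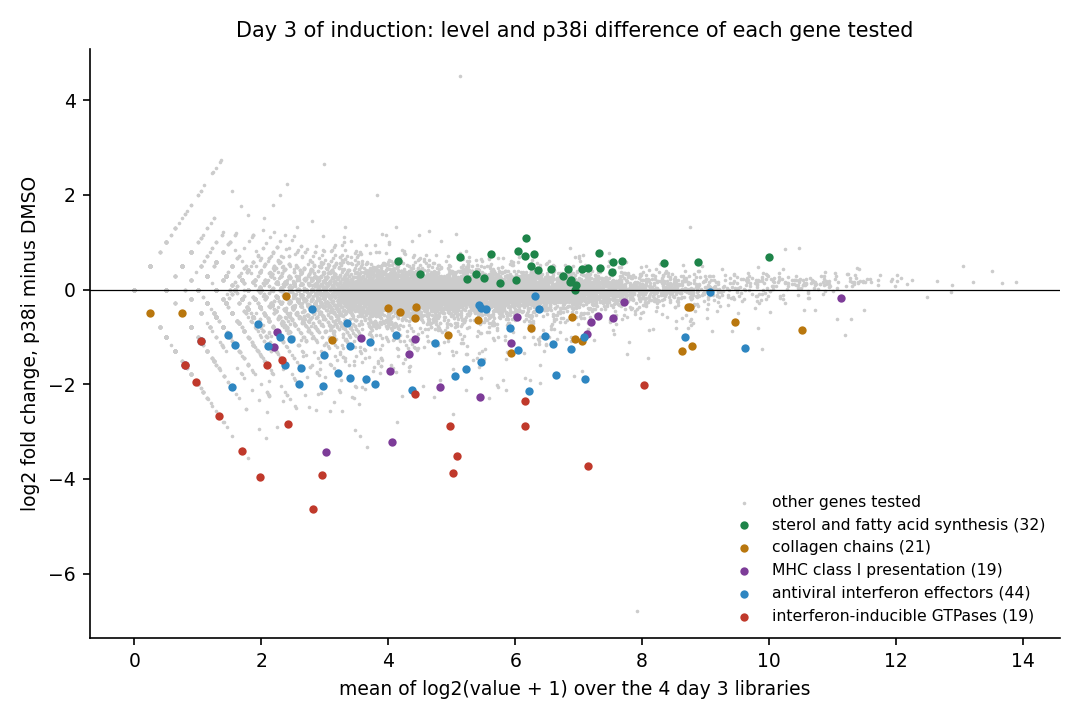
Log2(value + 1) difference between p38i and DMSO on day 3 (y axis) against the mean log2(value + 1) of the 4 libraries (x axis), 1 point for each of 13230 genes tested, with the members of 5 gene lists in colour and the other genes in grey. The 19 interferon-inducible GTPases lie at the lower edge, between -4.63 and -1.08, and nearly all of the 32 sterol and fatty acid genes lie above the line at 0.

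The largest falls were in interferon-inducible GTPases, the IRG and GBP families that attack the vacuoles of intracellular pathogens. All 19 tested members of the 22 listed were lower in p38i by the adjusted p, against 16.2% of all genes. In all 19 the p38i libraries lay below both DMSO libraries, against 33.3% of all genes. The median log2 fold change of the 19 was -2.84. Summed over the list, values stood at 1612 and 2223 in the DMSO libraries and 260 and 271 in the p38i libraries, a mean 7.22-fold higher in DMSO. These levels were above the MEF starting level in both arms, since the same sum was 30 and 38 in untreated MEFs.

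Several of these genes lie together on chromosome 11, and 5 of their promoters are shown because the response to interferon acts through known elements there. The interferon-stimulated response element, bound by complexes that contain IRF proteins, has a core of GAAA, any 2 bases, and GAAA again. Searched on both strands in windows of 300 bases around gene starts (RefSeq, GRCm38.p6), it was found for 11 of the 13 GTPase genes that matched a window (84.6%), beside 3.78% of all tested genes with a window. The gamma-activated site TTCNNNGAA, a further element of the interferon response, was found for 7 of the 13 (53.8%), beside 8.11% of the tested genes with a window. A match is a description of the letters and not of binding. The 150 bases before the start are shown for 5 GTPase genes of chromosome 11 with large falls that carried the core there. The core is in capitals, and the bases are read in the direction of transcription. These 5 are not the largest falls of the list, since Iigp1 (-3.91) is not among them. They are Tgtp2 (chr11:49064213-49064362, minus strand), Gm12250 (chr11:58183693-58183842, plus strand, with the core on the opposite strand and therefore as TTTCAGTTTC), Igtp (chr11:58199406-58199555, plus strand), Tgtp1 (chr11:48992247-48992396, minus strand) and Irgm2 (chr11:58214827-58214976, plus strand).
Tgtp2: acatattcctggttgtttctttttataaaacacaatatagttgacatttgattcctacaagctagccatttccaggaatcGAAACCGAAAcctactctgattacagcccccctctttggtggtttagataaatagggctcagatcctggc
Gm12250: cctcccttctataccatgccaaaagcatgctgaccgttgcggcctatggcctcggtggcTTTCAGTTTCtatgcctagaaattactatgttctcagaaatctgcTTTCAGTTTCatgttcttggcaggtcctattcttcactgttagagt
Igtp: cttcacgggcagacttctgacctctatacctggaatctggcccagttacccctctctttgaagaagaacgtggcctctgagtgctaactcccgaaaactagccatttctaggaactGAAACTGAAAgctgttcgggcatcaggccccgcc
Tgtp1: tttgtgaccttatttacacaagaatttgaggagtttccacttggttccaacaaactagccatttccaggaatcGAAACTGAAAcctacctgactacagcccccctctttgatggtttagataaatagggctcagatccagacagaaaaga
Irgm2: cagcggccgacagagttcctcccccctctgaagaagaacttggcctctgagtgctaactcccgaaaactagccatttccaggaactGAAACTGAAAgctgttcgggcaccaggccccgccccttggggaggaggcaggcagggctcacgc
The longest unbroken run shared by the Igtp and Irgm2 stretches is 38 bases, and that of Tgtp1 and Tgtp2 is 27 bases. Neither of these longest runs touches the core. Within each pair, however, the bases directly before and after the core are also the same, so the cores of a pair lie in shared sequence.

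Tgtp1, the most abundant of these GTPases after Irgm1, was listed at 467 and 575 in the DMSO libraries and at 39 and 37 in the p38i libraries. Its log2 fold change was -3.74 (SE 0.19, adjusted p = 7.6e-11, limma). Igtp (Irgm3, chr11:58199556-58207591) stood at 96 and 159 against 7 and 8, a change of -3.88 (SE 0.23, adjusted p = 4.1e-10, limma). The gap between the groups was wider than the gap between the DMSO replicates for both genes. Irgm1, which protects the cell's own membranes from the other IRG proteins, stood at 458 and 601 against 130 and 128 (-2.02), and Irgm2 at 71 and 100 against 10 and 11 (-2.89). Iigp1 was at 20 and 42 in DMSO against 1 and 1 in p38i (-3.91), and Ifi47 at 89 and 145 against 9 and 9 (-3.52). Among the guanylate-binding proteins, Gbp2 stood at 156 and 237 against 21 and 30 (-2.89), Gbp3 at 145 and 175 against 30 and 31 (-2.35), and Gbp7 at 40 and 51 against 9 and 9 (-2.21). Each of these genes was lower in both p38i libraries than in either DMSO library.

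For 5 of the 19, both p38i libraries were listed at 0, so no fold is given: Gm12250 stood at 9 and 23 in DMSO and Gbp4 at 7 and 13. Tgtp2 was at 22 and 52 in DMSO against 0 and 1 in p38i. The second DMSO library was above the first for 17 of the 19 and below it for none, so the DMSO replicates differed in this response as a whole, and leaving out any 1 of the 4 libraries left 18 or 19 of the 19 lower. Near-identical copies can split reads between family members, and 7 of the 19 had such a copy listed at 1 or more. The 12 members without any copy were lower as well, all 12 of them. The annotated Igtp and Irgm2 genes overlap on the same strand, and reads in the overlap are uncertain.

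The wider antiviral programme fell by less. Of 44 interferon-stimulated effector genes tested, 38 were lower, beside 16.2% of all genes, and none was higher. For 42 both p38i libraries lay below both DMSO libraries, beside 33.3% of all genes. The median log2 fold change of the list was -1.18. Their summed values were 4361 and 4916 in DMSO against 2292 and 2307 in p38i. Between the DMSO replicates, the second was above the first for 32 of the 44 and below it for 6. Isg15, a ubiquitin-like modifier, stood at 238 and 289 against 65 and 76 (-1.88, SE 0.21, adjusted p = 1.5e-06, limma). Zbp1, a sensor of Z-form nucleic acid, stood at 148 and 164 against 30 and 40 (-2.14), and Oas2, which makes the activator of RNase L, at 73 and 74 against 27 and 23 (-1.52). The abundant membrane proteins changed less in log2 terms, with Ifitm3 at 1136 and 1300 against 518 and 509 (-1.24) and Bst2 (tetherin) at 523 and 645 against 285 and 294. The 6 that did not pass were Ifi27l2a, Slfn2, Ifi27, Ifitm1, Tor3a and Ifitm2. The response element core was present for 14 of the 32 effector genes with a window (43.8%), beside 3.78% of the tested genes with a window.

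Among the signalling genes upstream, the transcription factors that are themselves induced by interferon were lower. Irf1 stood at 45 and 71 against 11 and 11 (-2.26), Irf7 at 88 and 103 against 34 and 34 (-1.46), and Nlrc5, the transactivator of MHC class I, at 8 and 11 against 2 and 0. Of the 27 signalling genes tested, 14 were lower and 1 was higher, with a median of -0.39. The gene that rose was Ifngr2, a chain of the interferon-gamma receptor, at 22 and 18 against 31 and 36 (0.72), while the ligand-binding chain Ifngr1 stood at 30 and 32 against 24 and 24 (-0.36), a call lost in 9 of 11 alternatives. Jak1, Irf3, Irf2 and Socs3 did not pass the test. The interferon genes Ifnb1, Ifna2, Ifna4 and Ifng were listed at 0 in the 4 libraries.

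Antigen presentation by MHC class I fell in its inducible parts most. All 19 genes of the list were lower in p38i, with a median of -1.04. As for the GTPases, the DMSO replicates differed over the list, the second being above the first for 17 of the 19 and below it for none. The immunoproteasome subunits that lie beside the TAP transporter genes on chromosome 17 fell furthest: Psmb9 (chr17:34181988-34187764) stood at 21 and 31 against 1 and 2 (-3.44), and Psmb8 at 38 and 66 against 4 and 5 (-3.22). Tap1, which carries peptides into the endoplasmic reticulum, stood at 83 and 109 against 21 and 17 (-2.27). The classical heavy chain H2-K1 stood at 185 and 197 against 127 and 133 (-0.55) and the light chain B2m at 2307 and 2447 against 2158 and 2057 (-0.17, adjusted p = 0.0070, limma), and the B2m call was lost without either second library. With B2m as the most abundant member, the summed values of the list differed by 1.32-fold. For 8 of the 19, mostly H2 genes, a near-identical copy was listed at 1 or more, so the split of reads among them is uncertain, and Psmb9 and Tap1 overlap on opposite strands.

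The interferon-inducible GTPases were near the floor of the scale in both arms on day 1. On that day, 10 of the 19 GTPases were listed at 0 in the 4 libraries of both arms, the list summed to 51 and 67 in DMSO against 34 and 36 in p38i, and its median log2 fold change was 0.00. On day 7 the list summed to 1411 and 1305 in DMSO against 596 and 603 in p38i, with a median of -1.17. By a test of the difference between the effects, the p38i effect differed between day 3 and day 1 for 2.79% of all genes (0.703% higher and 2.09% lower on day 3) and between day 3 and day 7 for 19.2% (6.42% higher and 12.8% lower). It was lower on day 3 than on day 1 for 16 of the 19 GTPases and lower on day 3 than on day 7 for 15 of them. Since values cannot fall below 0, genes that were at 0 on day 1 could show no earlier fall. Effector genes followed, with 20 of 44 lower than on day 1 and 29 lower than on day 7.

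Igtp shows the course, with 1 and 0 in DMSO against 0 and 0 in p38i on day 1, and 96 and 84 against 23 and 25 on day 7. In DMSO it stood no lower on day 3 than on day 7, whereas in p38i it stood lower on day 3. The heavy chain H2-K1 went the other way between day 3 and day 7. It stood at 1476 and 1338 in DMSO on day 7 against 483 and 437 in p38i, and its p38i effect was less negative on day 3 by 1.06 on the log2 scale (adjusted p = 8.3e-07, limma). The same held for H2-D1, H2-Q6, H2-Q7 and B2m, while the effect on Erap1, H2-T23, Psmb10, Psmb9 and Tapbp was more negative on day 3 than on day 7. In the arm given p38i only before induction, the GTPase list summed to 4568 and 4727 on day 3, above both DMSO libraries.

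**Figure D2:**
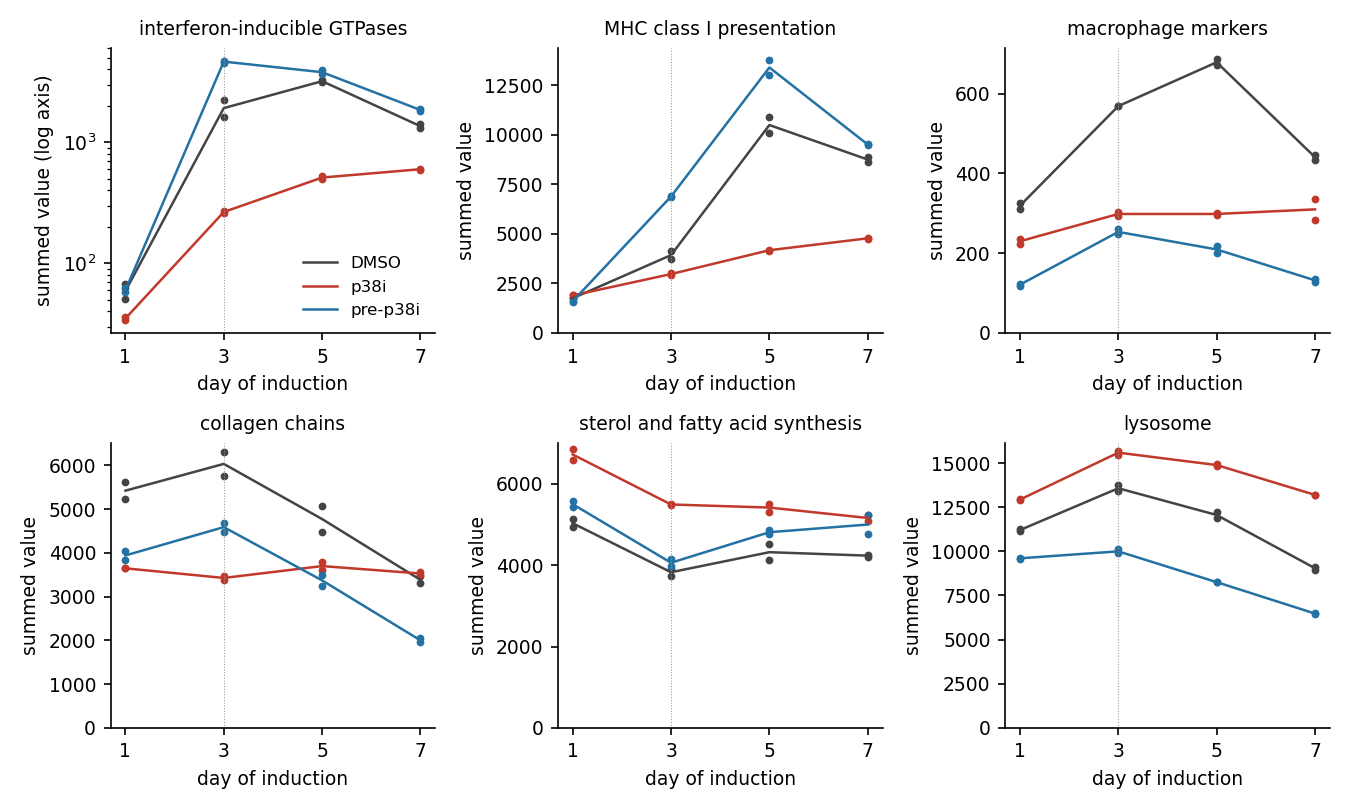
Summed values of 6 gene lists (y axis, on a log scale for the GTPases and linear from 0 for the others) by day of induction (x axis) in DMSO, p38i and the arm given p38i before induction (pre-p38i), 1 point per library with a line through the mean of each pair and a dotted line at day 3. On day 3 the GTPase sums stand at 1612 and 2223 in DMSO against 260 and 271 in p38i, while the sterol and lysosomal sums are higher in p38i.

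Macrophage markers mostly moved in the same direction, several of them at low levels. Of the 16 tested macrophage markers, 11 were lower in p38i and none was higher, with a median of -1.17, and the list summed to 569 and 569 in DMSO against 303 and 294 in p38i. Lyz2 (lysozyme M) made up the most, at 248 and 275 against 136 and 135 (-0.94), while Cd68, at 76 and 70 against 87 and 76, did not pass. By their means, C1qa and C1qc, among the largest falls of the list, were 6.33-fold and 4.78-fold higher in DMSO. Some defining markers were low, with Ptprc (CD45) at 1 and 1 against 0 and 0, Csf1r at 4 and 3 against 0 and 0, and Adgre1 (F4/80) at 7 and 5 against 2 and 1. In the arm given p38i before induction, the macrophage sum was 260 and 247 on day 3, below DMSO, while its GTPase sum was above DMSO. Of 10 T and NK cell markers, 9 were listed at 0 in the 4 libraries, and the other, Cd3g, stood at 12 and 8 against 0 and 1. The part of macrophages in the interferon difference was not tested.

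Chemokines, which recruit leukocytes, and inflammatory mediators were lower for some members. Of 13 chemokine genes tested, 6 were lower, beside 16.2% of all genes, and none was higher, with a median of -0.79. Ccl7 stood at 365 and 403 in DMSO against 215 and 217 in p38i (-0.83). Cxcl12, which stromal cells make without stimulation, stood at 19 and 17 against 26 and 24 and did not pass. Of 12 cytokine and prostaglandin genes, 5 were lower, led by Il33, and 1 was higher. Ptgs2 (cyclooxygenase 2), whose mRNA is known to be held stable through p38 and MK2, stood at 47 and 52 against 20 and 19 (-1.30, SE 0.10, adjusted p = 8.9e-09, limma). The gene that rose was Il1rn, the antagonist of the interleukin-1 receptor (0.77), a call lost without the second p38i or the first DMSO library. The list held 2 or 3 lower genes when the second p38i library or either DMSO library was left out.

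Epithelial genes were lower in p38i. Of 30 epithelial genes tested, 15 were lower, beside 16.2% of all genes, and none was higher, with a median of -0.56. Cdh1 stood at 33 and 30 in DMSO against 14 and 12 in p38i (-1.22, SE 0.10, adjusted p = 2.0e-08, limma). The simple keratin pair Krt8 and Krt18, which form the first epithelial filaments, stood at 10 and 10 against 1 and 2 (-2.17) and at 14 and 13 against 5 and 3 (-1.56). Jup (plakoglobin), shared by desmosomes and adherens junctions, stood at 180 and 188 against 129 and 123 (-0.54), and Epcam at 8 and 10 against 6 and 5 (-0.62, adjusted p = 0.031, limma), a call lost in 8 of 11 alternatives. With a pseudocount of 0.1 the count of epithelial genes lower fell to 9. Cldn3 was at or near 0, with 1 and 0 against 0 and 0. The Cdh1 effect on day 3 differed from that on day 1 by 0.14 and from that on day 7 by -0.09, and neither difference passed the test, with DMSO levels of 10 and 11 on day 1 and of 159 and 151 on day 7. Over the list, the effect was lower than on day 1 for 2 genes, and was higher than on day 7 for 5 and lower for 4. Of the 35 genes listed, 8 were at 0 in the 4 day 3 libraries, and such genes could show no fall on that day.

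Genes of stratified epidermis, the layered epithelium of skin, were lower too. Of 13 tested, 6 were lower, beside 16.2% of all genes, and none was higher, with a median of -0.82. Tgm3, a transglutaminase of the cornified envelope, stood at 40 and 38 against 3 and 3 (-3.32, SE 0.14, adjusted p = 2.2e-11, limma), with no overlap between groups. Tgm1 stood at 14 and 12 against 1 and 2 (-2.51), Krt13 at 26 and 24 against 8 and 7 (-1.61), and Krt6a at 8 and 8 against 1 and 1 (-2.17). Trp63, the master regulator of the stratified fate, stood at 3 and 5 against 0 and 0.

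Mesenchymal genes went both ways. Of 17 mesenchymal genes, 7 were lower and 2 were higher, beside 16.2% and 5.22% of all genes, with a median of -0.22. Twist1 stood at 155 and 144 in DMSO against 158 and 150 in p38i and Zeb1 at 17 and 16 against 18 and 18, and neither passed. Vim stood at 3734 and 3522 against 4150 and 4072 (0.18) and Cdh2 (N-cadherin) at 107 and 109 against 129 and 129 (0.25), and both passed, although the Vim call was lost without either p38i library or the second DMSO library. Among those that fell, Fap stood at 16 and 12 against 5 and 3 (-1.60) and Pdgfra, a receptor that marks stromal fibroblasts, at 8 and 8 against 3 and 2 (-1.38). Cdh2 thus rose in the same libraries in which Fap and Pdgfra fell.

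Extracellular matrix genes were mostly lower. Of 21 collagen genes tested, 17 were lower, beside 16.2% of all genes, and none was higher. Their median was -0.65, and the summed values were 1.76-fold higher in DMSO. Between the DMSO replicates, the first was above the second for 18 of the 21 and below it for 2. The DMSO libraries thus differed over most of the list, and its members are not independent. Col3a1 (chr1:45311538-45349706) stood at 632 and 607 against 264 and 241 (-1.29, SE 0.08, adjusted p = 6.7e-10, limma), and Col1a1 at 719 and 620 against 297 and 287 (-1.19). Postn (periostin), a matrix protein of remodelling tissue, stood at 118 and 123 against 24 and 30 (-2.13, SE 0.09, adjusted p = 2.2e-11, limma). Of 28 further matrix genes, 19 were lower and 2 were higher, the latter being Fbn1 and Aebp1, both calls lost without the first p38i or the second DMSO library. The effect was more negative on day 3 than on day 7 for 17 of the 21 collagens and 24 of the 28 matrix genes, beside 12.8% of all genes. For Col3a1 the arms stood at 292 and 313 against 270 and 281 on day 7, and for Postn at 28 and 30 against 28 and 34, and for neither gene were the arms as far apart as on day 3.

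Proteases of the matrix followed in part. Of 15 matrix metalloproteinases and their inhibitors, 8 were lower and 1 was higher. Mmp3 (stromelysin) stood at 43 and 48 against 4 and 8 (-2.79, SE 0.24, adjusted p = 7.7e-08, limma), Mmp2 at 180 and 162 against 80 and 79 (-1.09), and Mmp13 at 9 and 13 against 0 and 0. The inhibitor Timp2 rose by 0.33. The prolactin-family proliferins, secreted by growing fibroblasts, were both lower (median -1.89), with Prl2c2 at 132 and 159 against 39 and 37 and Prl2c3 at 74 and 93 against 21 and 23, but they share near-identical copies and are uncertain. Of 13 contractile genes 4 were lower (median -0.21), and 2 without the first p38i library, without the second DMSO library or after quantile normalization. Of 20 targets of TGF-beta and YAP 8 were lower (median -0.20), and 5 without the first DMSO library or after quantile normalization, with none higher in either list.

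**Figure D3:**
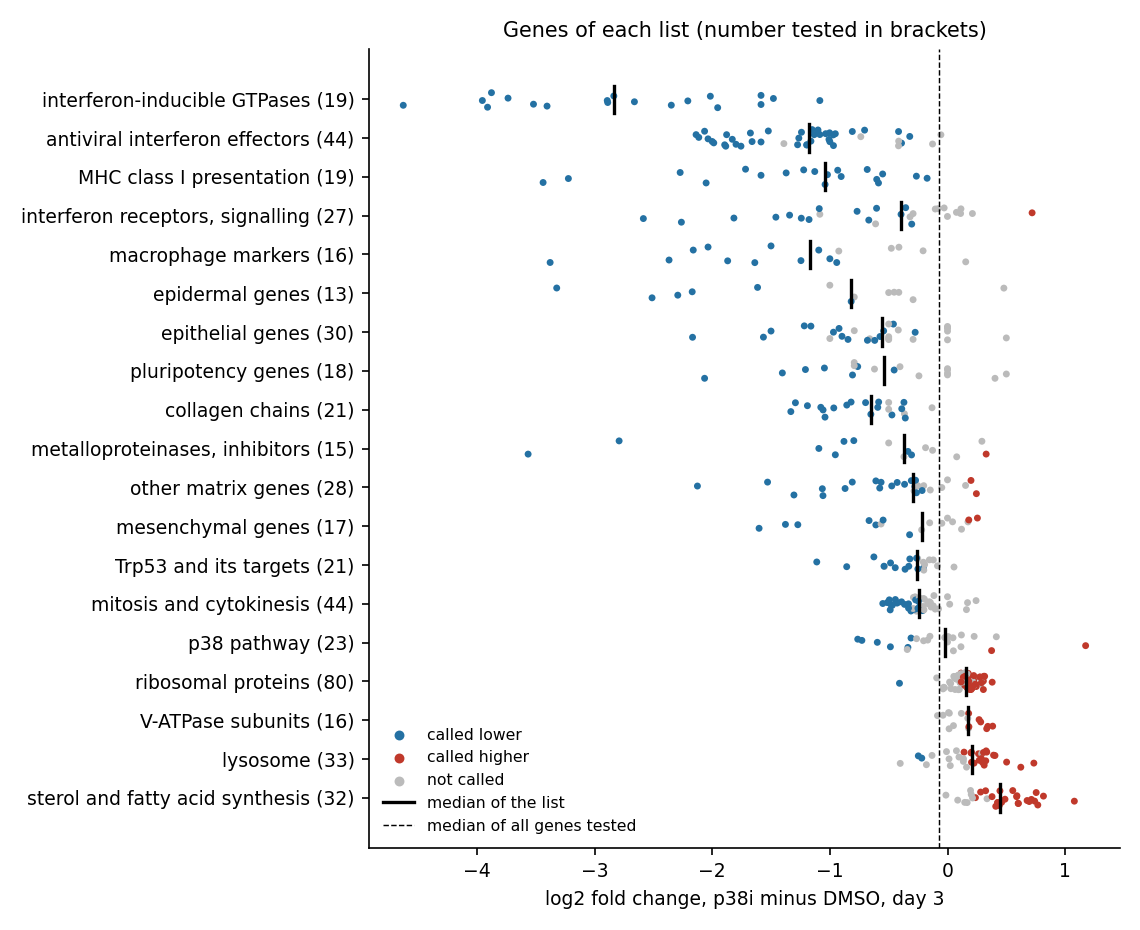
Log2 fold change on day 3 (x axis, p38i minus DMSO, log2(value + 1)) of the tested members of each gene list (y axis), 1 point per gene, coloured by its call, with a bar at the list's median and a dashed line at the median of all genes, -0.08. The interferon-inducible GTPases lie wholly on the negative side, with a median of -2.84, and the sterol genes lie on the positive side but for 1 gene near 0, with a median of 0.44.

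Many pluripotency genes were too low to measure on day 3, with 14 of the list at 0 in the 4 libraries. Of 28 listed, 18 entered the test, which draws on the levels of the 28 libraries, 7 were lower in p38i (3 without the first DMSO library) and none was higher. L1td1, an RNA-binding protein of stem cells, stood at 146 and 143 in DMSO against 72 and 67 in p38i (-1.05, SE 0.09, adjusted p = 6.5e-08, limma). Zfp42 (Rex1) stood at 6 and 4 against 0 and 1 and Gdf3 at 5 and 6 against 1 and 2. Dppa5a and Dppa3 were listed at 0 in the 4 libraries and Esrrb at 0 and 0 against 1 and 0. On day 7, Nanog stood at 12 and 16 in DMSO against 1 and 1 in p38i. The level of the reprogramming factors themselves differed: Pou5f1 (Oct4) stood at 3488 and 3216 against 2523 and 2470 (-0.42, SE 0.05, adjusted p = 1.1e-06, limma) and Klf4 at 806 and 667 against 596 and 569 (-0.33, lost without the first DMSO or the second p38i library), while Sox2, at -0.24, did not pass. Transgene and endogenous transcripts of these 3 cannot be told apart in the table, and the part of the transgene level in the other differences was not tested.

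The p38 kinase genes moved little at the level of mRNA, while other genes of the pathway went both ways. Mapk14 stood at 40 and 40 in DMSO against 44 and 43 in p38i and did not pass, nor did the other p38 kinase genes Mapk11 (2 and 2 against 3 and 3), Mapk12 (1 and 2 against 2 and 1) and Mapk13 (21 and 25 against 28 and 26). Of 23 pathway genes, 6 were lower (26.1%) and 2 were higher (8.7%), beside 16.2% and 5.22% of all genes. The median was -0.02. Map2k6, which encodes the p38 activator MKK6, rose from 8 and 10 to 23 and 20 (1.17, SE 0.13, adjusted p = 2.1e-06, limma), and the effector kinase gene Mknk2 rose by 0.37. The 6 that fell were Mef2c, Zfp36l1, Hspb1, Zfp36, Atf2 and Rps6ka4, which are transcription factors, regulators of AU-rich mRNAs, a small heat shock protein and the kinase MSK2. Zfp36l1 stood at 68 and 61 against 38 and 39 (-0.73).

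Neighbouring signalling lists had small medians. Of 19 feedback genes of the MAP kinases 6 were lower (median -0.21), beside 16.2% of all genes, and 3 were lower without the second p38i library or after quantile normalization. Of 10 AP-1 genes 3 were lower (median -0.15), led by Fosl1 at 41 and 39 against 22 and 25 (-0.75). Of 15 BMP pathway and Id genes, 5 were lower and 1 was higher. Id3, a direct BMP target that blocks differentiation factors, stood at 25 and 25 against 7 and 8 (-1.62, SE 0.10, adjusted p = 1.3e-09, limma). On day 1, Id3 had stood at 11 and 11 against 13 and 11, and the effect was lower on day 3 by 1.73 (adjusted p = 6.5e-07, limma). Bmp6, a ligand of the same pathway, stood at 9 and 9 against 2 and 1 (-2.03), while Grem1, which blocks BMP ligands, rose by 0.28.

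Sterol and fatty acid synthesis made up the clearest group of rises. Of 32 genes tested, 24 were higher in p38i, none was lower, and the groups did not overlap in the upward direction for 31, beside 5.22% and 15.6% of all genes. The median was 0.44, and summed values were 3917 and 3741 against 5478 and 5514. Dhcr7, the last enzyme of cholesterol synthesis, stood at 48 and 49 in DMSO against 103 and 104 in p38i (1.08, SE 0.07, adjusted p = 1.6e-09, limma). Mvd, of the mevalonate pathway, stood at 50 and 48 against 89 and 85 (0.82) and Scd2, a fatty acid desaturase, at 836 and 784 against 1290 and 1299 (0.68). Insig1, which holds back the SREBP factors and is their target, rose by 0.77, while Srebf2 did not pass.

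The sterol rise was already present on day 1, with a list median of 0.42, and was small on day 7, at 0.07. Mvd stood at 77 and 80 in DMSO against 131 and 133 in p38i on day 1 and at 50 and 61 against 49 and 46 on day 7. The effect was higher on day 3 than on day 7 for 17 of the 32 genes, beside 6.42% of all genes, and lower for 1. Dhcr7 stood at 66 and 69 in DMSO against 119 and 123 in p38i on day 7.

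Lysosomal genes rose by smaller amounts at high levels. Of 33 tested, 19 were higher and 2 (Tpp1 and Scarb2) were lower, with a median of 0.20, and summed values were 13742 and 13404 in DMSO against 15695 and 15485 in p38i. Gpnmb, a glycoprotein induced by lysosomal stress, stood at 105 and 101 against 167 and 177 (0.73, SE 0.08, adjusted p = 2.7e-06, limma). The aspartic protease Ctsd stood at 2255 and 2086 against 2745 and 2690 (0.33), Ctsa at 418 and 407 against 568 and 516 (0.39) and Gaa, which degrades glycogen, at 221 and 195 against 265 and 251 (0.31). Of 16 subunits of the V-ATPase, the proton pump of the lysosome, 7 were higher and none was lower (median 0.18), and 4 were higher without the second p38i library. In contrast to the sterol genes, the lysosomal effect was lower on day 3 than on day 7 for 21 of the 33, beside 12.8% of all genes. Rragd, a Rag GTPase that links lysosomes to mTORC1, rose from 10 and 10 to 25 and 28 (1.32, SE 0.16, adjusted p = 6.6e-06, limma), whereas the factors Tfeb and Tfe3 did not pass.

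The E-box CACGTG, the core of the site that TFEB and related factors bind, was found in the promoter window of 9 of 24 lysosomal genes (37.5%) and 4 of 11 V-ATPase genes (36.4%), beside 11.7% of the tested genes with a window. Here too a match describes the letters and not binding. Members that rose were not compared with those that did not, and the part of TFEB in the rise was not tested. The 150 bases before the start are shown for 3 lysosomal genes that carried the E-box there and rose, with the E-box in capitals. They are Ctsa (chr2:164833623-164833772, plus strand), Ctsd (chr7:142387828-142387977, minus strand) and Gaa (chr11:119267813-119267962, plus strand), from RefSeq on GRCm38.p6.
Ctsa: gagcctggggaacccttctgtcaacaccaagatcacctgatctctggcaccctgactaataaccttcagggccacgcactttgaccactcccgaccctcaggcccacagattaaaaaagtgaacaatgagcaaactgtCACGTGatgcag
Ctsd: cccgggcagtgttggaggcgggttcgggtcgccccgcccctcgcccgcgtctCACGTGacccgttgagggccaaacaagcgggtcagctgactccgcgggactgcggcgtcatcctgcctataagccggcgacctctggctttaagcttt
Gaa: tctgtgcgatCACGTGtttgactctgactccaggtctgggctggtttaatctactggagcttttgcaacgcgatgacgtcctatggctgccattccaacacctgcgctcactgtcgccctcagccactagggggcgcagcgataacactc
The E-box begins 12, 98 and 140 bases before the start in Ctsa, Ctsd and Gaa. Among the 21 sterol genes with a window, 4 held the E-box (19%). None of them held the interferon response element core, which is near the share of 3.78% of the tested genes with a window.

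Other rises were small or rested on few genes. Both major metallothioneins, which bind zinc and copper, rose: Mt1 stood at 1016 and 1073 against 1918 and 1913 (0.87, SE 0.06, adjusted p = 4.4e-09, limma) and Mt2 at 885 and 913 against 1666 and 1603 (0.86). Of the other 4 genes of the metal-response list, Slc39a10, a zinc importer, was lower, a call lost without either second library, and none was higher. Of 80 ribosomal protein genes, 37 were higher and 1 was lower (median 0.16). Only 18 of them have no near-identical copy, and of those 3 were higher and 1 was lower. Leaving out any 1 of the 4 libraries left 16 to 24 ribosomal calls higher, and quantile normalization left 14. Of 36 nuclear genes of the respiratory chain 4 were higher (median 0.08), 2 without the first DMSO library or either p38i library, and 7 after quantile normalization. Of 13 mitochondrial ones 1 was higher (median 0.13), a call lost when any 1 of the 4 libraries was left out, and none was lower in either list.

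By size alone, the 10 largest rises of called genes, with a mean value of 5 or more, were led by Gm7336, at 0 and 53 against 146 and 189, a gene with 24 near-identical copies listed at 1 or more and therefore uncertain. Cers1, a ceramide synthase that overlaps Gdf1 on the same strand, stood at 1 and 2 against 10 and 11 (2.23, SE 0.26, adjusted p = 3.8e-06, limma). The others, after Rragd, Map2k6 and Dhcr7, included Gdf11, a TGF-beta family ligand, at 20 and 23 against 49 and 50 (1.17), and Aldoc, a glycolytic aldolase, at 8 and 4 against 12 and 15 (1.10). Pstk, which acts in selenocysteine synthesis, stood at 11 and 18 against 34 and 31 (1.15), Arhgap22 at 7 and 4 against 18 and 12 (1.31), and RP23-228C13.2, which has 13 copies, at 6 and 7 against 17 and 12 (1.03). The calls for Aldoc, Arhgap22 and Pstk were each lost without 1 or more of the 4 libraries. Of the 10 largest falls, 8 were interferon-inducible genes. The remaining pair was Mmp13 and Gm10925, at 2559 and 2553 against 0 and 534, which shares reads with a near-identical copy and is uncertain.

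**Figure D4:**
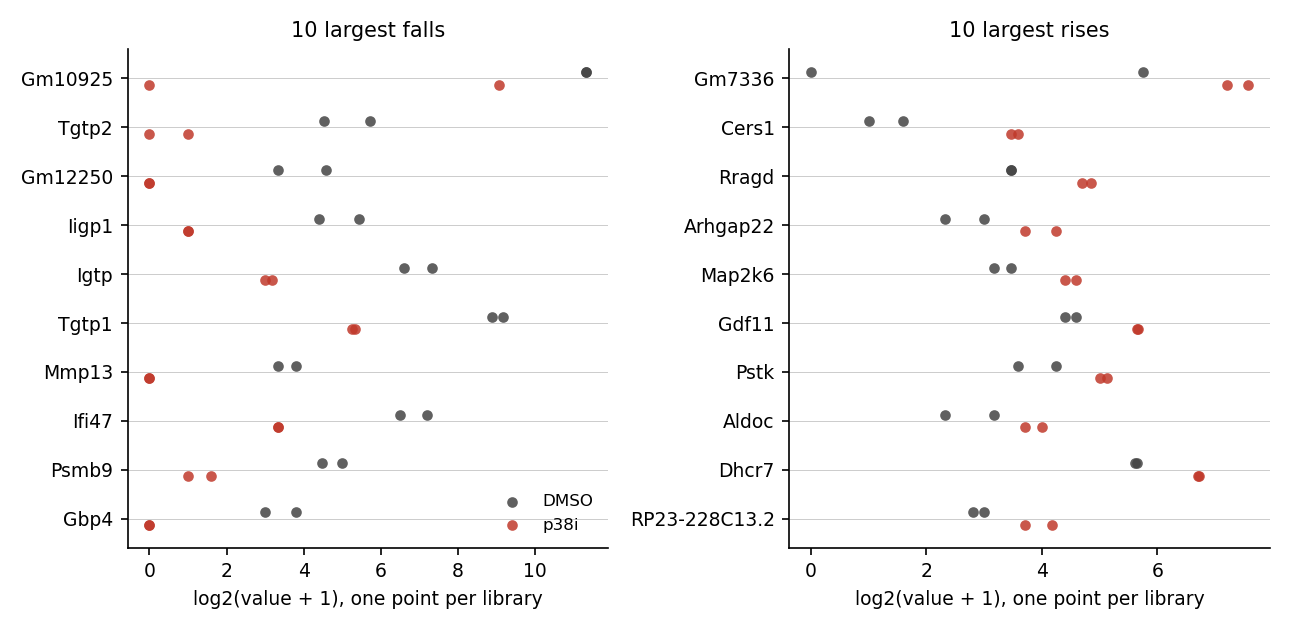
Log2(value + 1) in each library (x axis) of the 10 largest falls (left) and the 10 largest rises (right) in p38i on day 3 among called genes of mean value 5 or more (y axis), 2 points per group, with equal values drawn on top of each other. The groups do not overlap for any of the 20 genes, as the rule required, and Gm7336 and Gm10925 show the widest spread between replicates.

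Targets of p53 and some genes of cell division were slightly lower. Of 21 p53 targets, 12 were lower and none was higher (median -0.26), beside 16.2% of all genes lower. Cdkn1a (p21) stood at 1258 and 1191 in DMSO against 859 and 891 in p38i (-0.48, SE 0.04, adjusted p = 1.5e-07, limma) and Trp53 at 156 and 142 against 118 and 120 (-0.32), while Mdm2 did not pass. Of 21 G1 regulators, 6 were lower and 2 (Cdkn2a and Cdk4) were higher. Of 36 replication genes 9 were lower (median -0.19), and of 44 genes of mitosis and cytokinesis 19 were lower (median -0.25), with none higher. For the replication genes, the second DMSO library was above the first in 29 of the 36 and below it in 4. The mitotic count was 12 without either second library and 11 after quantile normalization. Top2a stood at 66 and 72 against 49 and 53 (-0.43) and Mki67 at 18 and 19 against 15 and 14 (-0.33), the latter call lost without either second library. The p38i effect was less negative on day 3 than on day 7 for 28 of the 36 replication genes and 36 of the 44 mitotic genes, beside 6.42% of all genes.

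Stress programmes were mixed, and some of the counts lay near the shares of all genes, 5.22% higher and 16.2% lower. Of 39 genes of the ATF4 response 5 were higher and 8 were lower, the former becoming 10 after quantile normalization and 3 without the first p38i library. Wars, a tRNA synthetase that interferon-gamma also induces, stood at 427 and 479 against 166 and 163 (-1.45, SE 0.07, adjusted p = 2.3e-11, limma), while Phgdh, of serine synthesis, rose by 0.59. On day 1 Wars had stood at 149 and 149 against 148 and 152, and its effect was lower on day 3 by 1.46. Of 19 NRF2 targets 10 were lower and 1 was higher (median -0.31), with Nqo1 at 64 and 62 against 34 and 33 (-0.89). Of 16 genes of the unfolded protein response 5 were lower (median -0.13), with 2 lower without the second p38i library and 3 without the first DMSO library. Of 12 heat shock genes 2 were lower and 2 higher. Of 28 glycolytic and hypoxia genes 2 were lower and 1 was higher (median -0.05), and of 22 autophagy and Rag genes 1 was lower and 6 were higher. None of the 3 aryl hydrocarbon receptor targets tested passed.

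Some imprinted and lineage genes were lower. Of 17 imprinted genes, 5 were lower (3 after quantile normalization) and 1 (Rian) was higher. Of all genes, 16.2% were lower and 5.22% were higher. The imprinted count higher and the DNA methylation count lower, given below, were near these shares. H19 stood at 558 and 519 against 357 and 344 (-0.62) and Dio3, which inactivates thyroid hormone, at 11 and 10 against 1 and 2 (-2.23). Of 6 genes of DNA methylation, 1 was lower, a call lost without the second DMSO library. The embryonic globin Hbb-y stood at 1580 and 1354 against 635 and 583 (-1.26, SE 0.08, adjusted p = 1.3e-09, limma) and was listed at 0 in MEFs. It was the only erythroid marker of 7 that entered the test. In the endothelial, myogenic and neural marker lists, Tek, Chrna1 and Stmn2 were among the genes lower and no gene was higher, and none of the 5 sex-linked genes passed.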

How the data were processed

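RNA was sequenced from 28 libraries of mouse cells in 14 groups of 2, and the report uses chiefly the 4 of day 3. Per the labels, the authors demultiplexed reads with bcl2fastq, aligned them with Bowtie2 2.2.5 and estimated expression with RSEM 1.3.0. The labels name mm10 and hg38 without a role, and 92.5% of gene positions in the table matched an annotation of GRCm38. The deposited table holds, for 50600 genes, whole numbers that sum to nearly the same total in each library (991287 to 992537). They were read as TPM that the authors rounded down and were treated as a score, not as read counts, and the depth of sequencing is unknown. The labels and the study's methods differ on the extraction and library kits.

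Values were tested with limma 3.58.1 (R 4.3.3; linear model with moderated variances and a mean-variance trend) on log2(value + 1), over 13230 genes whose mean over the libraries reached 1, with 14 groups fitted to 28 libraries without a block, and p-values adjusted by the Benjamini-Hochberg method at 0.05. All limma tests were two-sided. The difference between p38i effects on 2 days was a contrast of the same fit. Near-identical copies were transcripts that matched at 95% or more over at least 200 nucleotides (BLAST 2.17.0+). Alternatives were a pseudocount of 0.1, no filter or a minimum mean of 5, only the groups compared, a replicate block, quantile normalization, a shift of each library by its median log2 ratio, a log2 change of at least 1, and each library left out.

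Named genes were the 10 largest rises and falls among called genes of mean value 5 or more whose groups did not overlap, up to 3 rises and 3 falls of each gene list, a fixed set of reprogramming, p38 and p53 genes, the 3 largest differences between days in each direction, and any list member given with its values. The members and gene lists were chosen with earlier results of these data known. Of the gene names, 27 that a spreadsheet had turned into dates were restored from the gene identifiers. Promoter windows came from RefSeq (GRCm38.p6), matched by symbol.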

Additional observations from a re-analysis of the deposited data

Results flagged for a closer look

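By a contrast of the p38i effects in limma, 369 genes differed between day 3 and day 1, and 2537 between day 3 and day 7. The largest differences from day 1 were negative for Tgtp2 (-4.63), Iigp1 (-3.91) and Psmb9 (-3.44), which were listed at or near 0 in both arms on day 1, and positive for Fndc4 (1.44), Mmp10 (1.18) and Pisd-ps1 (1.11). Id3 (-1.73) and Wars (-1.46) also had a lower effect on day 3 than on day 1. Against day 7, the largest negative differences were those of Gm38356 (-4.73), RP24-461H14.1 (-3.64) and Tac2 (-2.73). The largest positive ones were those of Cd209g (4.78), Dppa5a (4.74) and Gm44206 (3.92). Gm38356 has 13 near-identical copies listed at 1 or more and is therefore uncertain. Cd209g, Dppa5a, Tgtp2 and Pisd-ps1 also have such copies, so the split of reads is uncertain for them too. Dppa5a was listed at 0 in both arms on day 3 and, on day 7, at 22 and 30 in DMSO against 0 and 0 in p38i. H2-K1 (1.06) had a less negative effect on day 3 than on day 7.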

How the results depend on the processing

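The count of 2833 genes on day 3 was 1044 when only the 4 libraries were fitted and 643 at a log2 change of at least 1, and lay between 1946 and 2136 when 1 library was left out. The count of 369 genes against day 1 was 202 with only the groups compared and 162 at a log2 change of at least 1 (248 to 285 with 1 library left out). The count of 2537 against day 7 was 489 at a log2 change of at least 1 (1705 to 2221 with 1 library left out). Quantile normalization raised the share of calls that were higher from 24.4% to an even split (1407 of each) on day 3, from 25.2% to 35.9% against day 1 and from 33.5% to 48.8% against day 7, and a median shift raised it to 40.5% on day 3. No gene given with a log2 fold change on day 3 changed sign under any alternative run. Of 83 such genes, 33 lost their call with only the 4 libraries fitted. A pseudocount of 0.1 ended the calls for 8 (Aldoc, Arhgap22, Epcam, Gbp3, Il1rn, Krt13, Krt18 and Psmb8), quantile normalization those for Epcam, Ifngr1, Mki67 and Vim, the median shift those for B2m, Epcam and Ifngr1, and the replicate block that for Ifngr1. The cause was not tested. List medians that changed sign were those of the p38 pathway (0.0646 with quantile normalization, 0.0417 with the median shift), glycolysis (0.0175 and 0.0142), imprinted genes (0.0446 and 0.0227), DNA methylation genes (0.0109 with quantile normalization) and neural markers (0.0249 without a filter), and, with medians inside the replicate spread, endothelial markers (0.2964 with quantile normalization), sex-linked genes (0.0989 and 0.0216) and autophagy genes (0.013 to 0.0653 in 5 alternatives). With only the 4 libraries fitted, calls fell to 10 of 19 GTPases, 17 of 44 effectors, 7 of 19 class I genes, 10 of 21 collagens, 5 of 30 epithelial genes, 5 higher lysosomal genes, 1 V-ATPase gene, 7 higher ribosomal genes, 4 p53 targets, 2 of 44 mitotic genes, 2 replication genes, 1 lower mesenchymal gene, 2 TGF-beta and YAP targets, 2 contractile genes and 1 MAP kinase feedback gene, with none left among AP-1 genes, genes of the unfolded protein response and the reprogramming factors, while 16 of 32 sterol genes were higher. Such fits hold fewer samples. The restriction of lists to members without near-identical copies was chosen after seeing the data. Besides the ribosomal count, it left fewer members and calls in other lists, with 31 effectors, 11 class I genes and 4 epidermal genes lower, 5 V-ATPase genes higher, no mitochondrial respiratory or NRF2 gene higher and no DNA methylation gene lower. Equal replicate numbers did not pair the samples: deviations from the group means correlated at 0.05 between DMSO and p38i on day 3. The replicate block gave 2666 calls (647 higher, 2019 lower) on day 3, 301 against day 1 and 2234 against day 7. Without counts, no limit of detection can be given for genes listed at 0.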
